A study of Danio rerio with 4 samples.

Results

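*hbbe2* and *slc4a1a* are genes of the red blood cell, and their expression was followed in RNA-seq of zebrafish tails. They are 2 of the 32520 genes of the deposited count table. Both were taken from the study's list of 294 genes that differed between the genotypes in these same 4 libraries, where their symbols are paired with Ensembl identifiers. The difference between the genotypes therefore chose them, and their values between the genotypes are given here as a description with no test.

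The libraries came from *asxl1*-/- embryos (replicates A and B) and from *asxl1*+/+ embryos (replicates A and B), 2 of each. All were offspring of *asxl1*+/- intercrosses on an AB background and received no treatment. *asxl1* encodes a chromatin regulator of the Polycomb group, and the study's mutants carry small CRISPR/Cas9 deletions that predict a truncated protein. Each library was made from a pool of around 20 tails cut at 3 dpf, including the caudal hematopoietic tissue, so it holds muscle, skin, vessels and blood together. The labels do not say which mutant allele or which parents a pool came from. Where nothing else is specified, the paper presents the allele with the larger of its 2 deletions, and it names no other for the RNA-seq.

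Hemoglobin is made of paired alpha-type and beta-type globin chains, each holding a haem group that binds oxygen. Zebrafish embryos use embryonic globin genes in their first red cells and switch to adult globin genes later, and the globin genes lie in separate clusters on different chromosomes. Band 3, the product of *slc4a1a*, exchanges chloride for bicarbonate across the red cell membrane and anchors the membrane skeleton, and zebrafish that lack it are anemic.

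Total counts per library were between 19423797 and 20027260 in *asxl1*-/- and between 22963847 and 26281738 in *asxl1*+/+, so both *asxl1*-/- libraries were shallower. Levels are in CPM, which scale each gene's count to the size of its library with TMM factors, and as CPM per kb of exon where genes are compared with each other. *asxl1* itself had 57.2 and 57.7 CPM in *asxl1*-/- replicates A and B, against 65.4 and 65.3 CPM in *asxl1*+/+ replicates A and B. Its reads cover the whole transcript, so this count does not check the deletion. In edgeR's quasi-likelihood test on genotype, 12 of 19970 genes tested had a false discovery rate (FDR) below 0.05, a share of 0.0601%. With the replicate letter, A or B, as a block, that count was 301, a share of 1.51%, from a fit with 1 residual degree of freedom.

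Globin RNA was counted in every pool and came mostly from a few genes, *hbae3* foremost. The 16 globin genes together took 29297 and 28047 counts in *asxl1*-/- replicates A and B, against 34212 and 32322 counts in *asxl1*+/+ replicates A and B. These are 0.151% and 0.140% of the counts in *asxl1*-/-, against 0.149% and 0.123% in *asxl1*+/+. This share was lowest in *asxl1*+/+ replicate B, and replicate A of that genotype lay between the *asxl1*-/- libraries. In pooled tails, fewer red cells and less RNA per red cell cannot be told apart.

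*hbbe2* (ENSDARG00000045143) encodes an embryonic beta-type globin. It lies on the minus strand at chr12:20349865-20350629 in GRCz11, with 3 exons that hold 590 bases. It had 1147 and 1097 counts in *asxl1*-/- replicates A and B, against 1252 and 1048 counts in *asxl1*+/+ replicates A and B. After scaling these were 58.4 and 55.2 CPM in *asxl1*-/-, against 54.3 and 40.3 CPM in *asxl1*+/+. The genotypes did not overlap, but *asxl1*+/+ replicate A was only just below *asxl1*-/- replicate B, and a single library, *asxl1*+/+ replicate B, stood well below the other 3. Over all genes tested, both *asxl1*-/- libraries lay above both *asxl1*+/+ libraries in 15.4% and below them in 14.6%.

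Over the libraries of a genotype, *hbbe2* averaged 56.8 ± 2.23 CPM for *asxl1*-/- and 47.3 ± 9.88 CPM for *asxl1*+/+ (SD, n = 2 per genotype). Its log2 fold change was 0.27 ± 0.13 (SE). The genotype means were 9.52 CPM apart, less than the 13.97 CPM between both *asxl1*+/+ libraries and more than the 3.16 CPM between both *asxl1*-/- libraries. Without *asxl1*+/+ replicate B the log2 fold change was 0.07, and without *asxl1*+/+ replicate A it was 0.49.

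*slc4a1a* (ENSDARG00000012881) lies on the minus strand of chromosome 3, at chr3:20065861-20092124, with 3556 exonic bases in 22 exon blocks. It had 1414 and 1233 counts in *asxl1*-/- replicates A and B, against 1462 and 1190 counts in *asxl1*+/+ replicates A and B. These were 72.0 and 62.1 CPM in *asxl1*-/-, against 63.4 and 45.8 CPM in *asxl1*+/+. Here the genotypes overlapped, since *asxl1*+/+ replicate A was above *asxl1*-/- replicate B, and the lowest library was again *asxl1*+/+ replicate B.

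*slc4a1a* averaged 67.0 ± 7.002 CPM over the *asxl1*-/- libraries and 54.6 ± 12.5 CPM over the *asxl1*+/+ libraries (SD, n = 2 per genotype). The log2 fold change was 0.30 ± 0.14 (SE). The genotype means differed by 12.5 CPM, while the *asxl1*+/+ libraries differed by 17.6 CPM and the *asxl1*-/- libraries by 9.90 CPM. Without *asxl1*+/+ replicate B the log2 fold change was 0.08, and without *asxl1*+/+ replicate A it was 0.55. For both genes, then, the size of the genotype difference depended on which *asxl1*+/+ library was used.

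**Figure D1:**
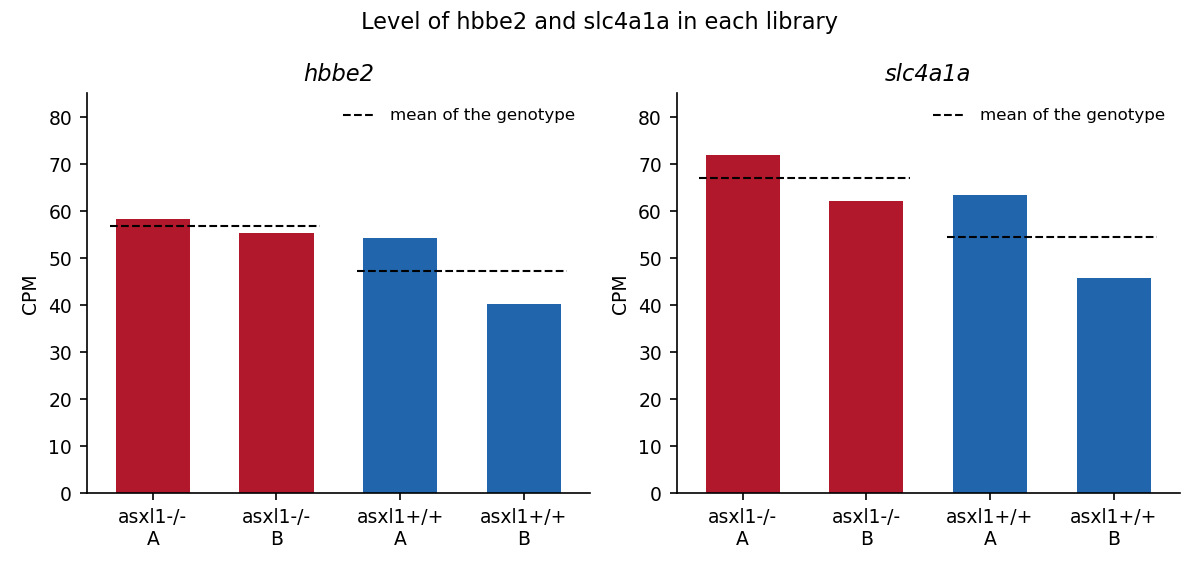
Level of *hbbe2* (left) and *slc4a1a* (right) in CPM in each library, with *asxl1*-/- in red, *asxl1*+/+ in blue and the mean of each genotype as a dashed line. *asxl1*+/+ replicate B is the lowest bar for both genes, at 40.3 and 45.8 CPM, and *asxl1*+/+ replicate A is close to *asxl1*-/- replicate B.

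Counting error was small beside the gap between the *asxl1*+/+ libraries. *hbbe2* was 1.35 times as high in *asxl1*+/+ replicate A as in replicate B, with an exact 95% interval of 1.24 to 1.46, and *slc4a1a* was 1.38 times as high (1.28 to 1.496). Within *asxl1*-/-, replicate A over replicate B gave 1.06 (0.972 to 1.15) for *hbbe2* and 1.16 (1.07 to 1.25) for *slc4a1a*. *asxl1*-/- replicate B over *asxl1*+/+ replicate A gave 1.02 (0.938 to 1.105) for *hbbe2* and 0.980 (0.907 to 1.06) for *slc4a1a*. *asxl1*-/- replicate A over *asxl1*+/+ replicate A gave 1.08 (0.992 to 1.17) for *hbbe2* and 1.14 (1.06 to 1.22) for *slc4a1a*. Over *asxl1*+/+ replicate B, *asxl1*-/- replicate B was at 1.37 (1.26 to 1.49) for *hbbe2* and 1.36 (1.25 to 1.47) for *slc4a1a*. *asxl1*-/- replicate A over *asxl1*+/+ replicate B gave 1.45 (1.33 to 1.58) for *hbbe2* and 1.57 (1.46 to 1.70) for *slc4a1a*. The intervals cover counting error only, not the spread between libraries. Those between genotypes are no test of the difference that chose both genes. Among the 5328 genes with a mean of 20 to 200 CPM, the size of the log2 CPM gap between the *asxl1*+/+ libraries, in either direction, was smaller than that of *hbbe2* in 97.1% and smaller than that of *slc4a1a* in 97.7%. Between the *asxl1*-/- libraries the gap was smaller than that of *hbbe2* in 45.3% of these genes and smaller than that of *slc4a1a* in 85.8%.

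**Figure D2:**
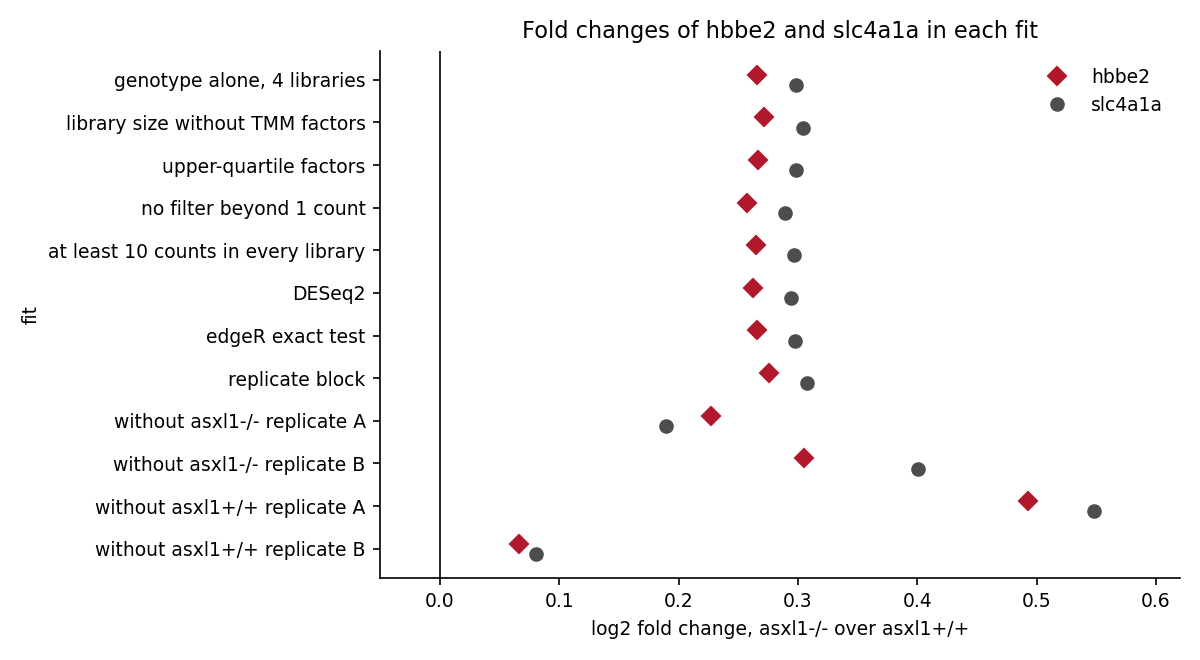
Log2 fold change (*asxl1*-/- over *asxl1*+/+) of *hbbe2* (red diamonds) and *slc4a1a* (grey circles) in each fit. The fits on all 4 libraries lie between 0.26 and 0.31, and leaving out *asxl1*+/+ replicate B gives 0.07 and 0.08.

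Both genes kept nearly the same proportion to each other in every library. Per kb of exon, *hbbe2* was at 98.97 and 93.6 CPM per kb in *asxl1*-/- replicates A and B, against 92.0 and 68.3 CPM per kb in *asxl1*+/+ replicates A and B. *slc4a1a* was at 20.2 and 17.5 CPM per kb in *asxl1*-/-, against 17.8 and 12.9 CPM per kb in *asxl1*+/+. The ratio of *hbbe2* to *slc4a1a* on this scale was 4.89 and 5.36 in *asxl1*-/- replicates A and B, against 5.16 and 5.31 in *asxl1*+/+ replicates A and B. Ratios of *asxl1*+/+ fell inside the range of the *asxl1*-/- ratios. By mean CPM per kb over the 4 libraries, *hbbe2* ranked 481 and *slc4a1a* ranked 2400 among the 19970 genes tested.

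*hbbe2* and *slc4a1a* were also each other's near neighbours when genes were ordered by likeness of pattern. The measure was the Euclidean distance between log2 CPM values over the 4 libraries, each gene centred on its own mean, among genes with a mean of at least 10 CPM. Of 9382 genes compared with *slc4a1a*, *hbbe2* was rank 2, and of those compared with *hbbe2*, *slc4a1a* was rank 7, both at a distance of 0.103. The median gene lay 0.495 from *slc4a1a* and 0.437 from *hbbe2*. The 5 named genes closest to *hbbe2* were *GATD3*, *si:ch73-61d6.3*, *cfp*, the gene of the complement factor properdin, *sorbs3* and *FAM13A*, at distances of 0.076 to 0.094. Those closest to *slc4a1a* were *l1cama*, which encodes a neural cell adhesion molecule, *hbbe2*, *SAMD11*, *CNTNAP2* and *GATD3*, at 0.099 to 0.110. None of these besides *hbbe2* belongs to the erythroid lists described next. Among other globins that reached 10 CPM, *hbae3* ranked 201 for *hbbe2* and 282 for *slc4a1a*. The globin rows ENSDARG00000113599, ENSDARG00000087390 and ENSDARG00000115405 ranked 365, 372 and 433 for *hbbe2*, and 134, 541 and 439 for *slc4a1a*. *hbae1.3* was far, at 8127 and 8463. The distance rests on 4 libraries and includes the genotype difference that put *hbbe2*, *slc4a1a* and also *l1cama* on the study's list, so their closeness is in part fixed by that choice.

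Other genes with a part in red cells were described from 6 lists of globins, haem synthesis, iron handling, membrane and skeleton, enzymes, and regulators. The pools hold muscle, skin and vessels besides blood, so the reads of these genes need not come from red cells. Of 80 entries, 68 were matched to rows by name. With names that stand for several rows, and with 6 further globin rows that the name table calls HBE1, the lists held 74 genes besides *hbbe2* and *slc4a1a*, and 67 of them passed the filter on low counts. Symbols in capitals are those that the gene name table gives to a zebrafish identifier from the human gene, and where 1 such symbol stands for several identifiers each is given with its own. None of the 67 genes had an FDR below 0.05 in edgeR's quasi-likelihood test, where the share over all genes was 0.0601%. The count was also 0 with edgeR's exact test, against 0.265% of all genes, and with DESeq2, against 0.135% of all genes. With the replicate letter as a block it was 5, against 1.51% of all genes, and all 5 are on the study's list. Leaving out *asxl1*-/- replicate A moved the log2 fold change of *mych* to -0.57, from -0.05 with all libraries. This gene was lower in replicate B of each genotype. Leaving out *asxl1*-/- replicate B moved *fthl28* to -0.93, from -0.74, and *fthl31* to -0.74, from -0.51.

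At an unadjusted p below 0.05, 3 of the 67 genes were higher and 2 lower in *asxl1*-/- in the quasi-likelihood test, beside 3.08% of all genes in either direction. These 5 genes are all on the study's list, which was chosen on these libraries, so they are no independent evidence. The 62 erythroid genes outside that list held 0. Leaving out the list tends to remove genes with a low p, so this 0 is in part fixed by that choice. Of the 67 genes, 34 had a positive log2 fold change and 33 a negative one, with a median of 0.03, beside a median of 0.00 over all genes tested. Both *asxl1*-/- libraries lay above both *asxl1*+/+ libraries in 16 of the 67 genes, against 15.4% of all genes, and below them in 9, against 14.6%.

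**Figure D3:**
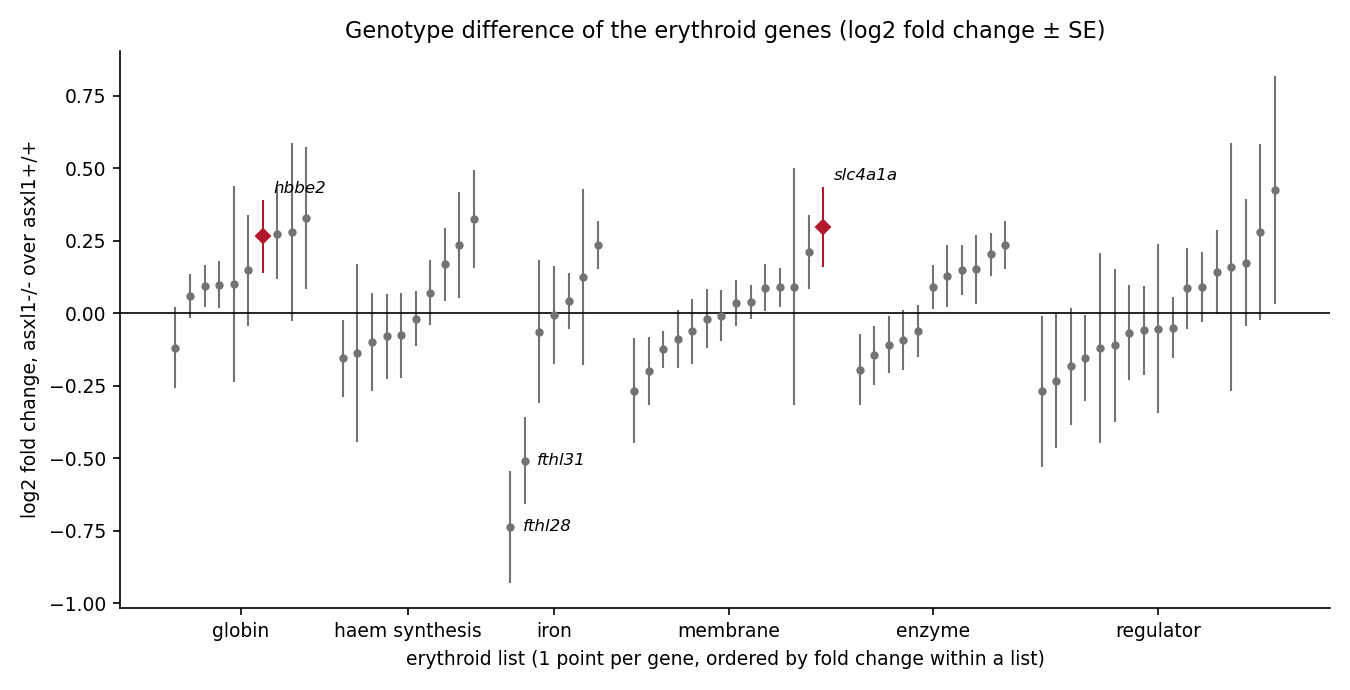
Log2 fold change ± SE (*asxl1*-/- over *asxl1*+/+) of *hbbe2*, *slc4a1a* (red diamonds) and the 67 other erythroid genes tested (grey circles), by list. Most points lie within 0.3 of 0, with the ferritin-like genes *fthl28* at -0.74 and *fthl31* at -0.51 furthest below.

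Among the globins, *hbbe2* was the fifth by CPM per kb. The other globins apart from *hbae4*, *hbae5* and *hbbe3* lie together at chr3:55091230-55147788, on the chromosome of *slc4a1a* but far from it. The highest was *hbae3*, an embryonic alpha-type globin on chromosome 3, at 1107 and 1033 CPM per kb in *asxl1*-/- replicates A and B, against 1080 and 925 CPM per kb in *asxl1*+/+ replicates A and B. Next came 3 genes of chromosome 3 that the name table calls HBE1, like *hbbe2* itself, with means over the 4 libraries of 465, 190 and 114 CPM per kb for ENSDARG00000087390, ENSDARG00000115405 and ENSDARG00000113599. *hbbe2* followed at 88.2 and *hbae1.3*, another embryonic alpha-type globin, at 84.3 CPM per kb. The ranges of *hbbe2*, 68.3 to 98.97, and *hbae1.3*, 68.2 to 95.1 CPM per kb, overlapped almost fully, and that of ENSDARG00000113599, 80.0 to 137 CPM per kb, overlapped both. *hbae1.2* and *hbae1.1* were lower, at 15.4 and 4.29 CPM per kb.

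*hbbe3*, *hbaa1* and 4 other globin rows were too low to be tested. *hbaa1*, an adult alpha-type globin, had 4 and 1 counts in *asxl1*-/- replicates A and B, against 1 and 5 counts in *asxl1*+/+ replicates A and B. *hbaa2* and the HBE1 rows ENSDARG00000097238 and ENSDARG00000089087 were at 0 counts in all 4 libraries. Read pairs that mapped to more than 1 place were not counted, so levels of globin genes with near-identical copies are uncertain, and a row at 0 does not show that the gene was silent.

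Of the 9 other globins tested, 8 had a positive log2 fold change, beside 50.2% of all genes, and 0 passed the FDR threshold. Their log2 fold changes ranged from -0.12 to 0.33 with a median of 0.10. Both *asxl1*-/- libraries lay above both *asxl1*+/+ libraries in 3 of the 9, against 15.4% of all genes, and below them in 0. These were *hbae1.1* (0.33 ± 0.24), *hbae1.2* (0.27 ± 0.16) and *hbae4* (0.28 ± 0.31, log2 fold change ± SE), with means of 2.71, 8.45 and 1.13 CPM. *hbae3* had 871 and 813 CPM in *asxl1*-/- replicates A and B, against 850 and 728 CPM in *asxl1*+/+ replicates A and B, a log2 fold change of 0.09 ± 0.07 (SE). ENSDARG00000113599 had 86.1 and 78.2 CPM in *asxl1*-/-, against 93.6 and 54.7 CPM in *asxl1*+/+, so its *asxl1*+/+ libraries spanned both *asxl1*-/- libraries. *hbae1.3* went the other way, with 37.8 and 51.9 CPM in *asxl1*-/-, against 52.8 and 44.6 CPM in *asxl1*+/+. Neither of these genes passed the threshold.

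The low position of *asxl1*+/+ replicate B was shared by the other globins. It was the lowest library for 8 of the 9 tested, beside 25.7% of all genes, and *asxl1*+/+ replicate A was above replicate B for 9 of 9, beside 49.8% of all genes. The median log2 gap from replicate A to B of *asxl1*+/+ was 0.24 for these globins, beside 0.43 for *hbbe2*, 0.47 for *slc4a1a* and 0.00 over all genes, and it was 0.05 for these globins between the *asxl1*-/- libraries. Without *asxl1*+/+ replicate B, 4 of the 9 globins had a positive log2 fold change and their median was -0.01. Without *asxl1*+/+ replicate A, 9 of 9 were positive and the median was 0.31. Outside the globins, *asxl1*+/+ replicate B was the lowest library for 6 of 10 haem synthesis genes and 6 of 17 regulators. It was lowest for 4 of 13 other membrane genes, 3 of 11 enzymes and 1 of 7 iron genes.

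**Figure D4:**
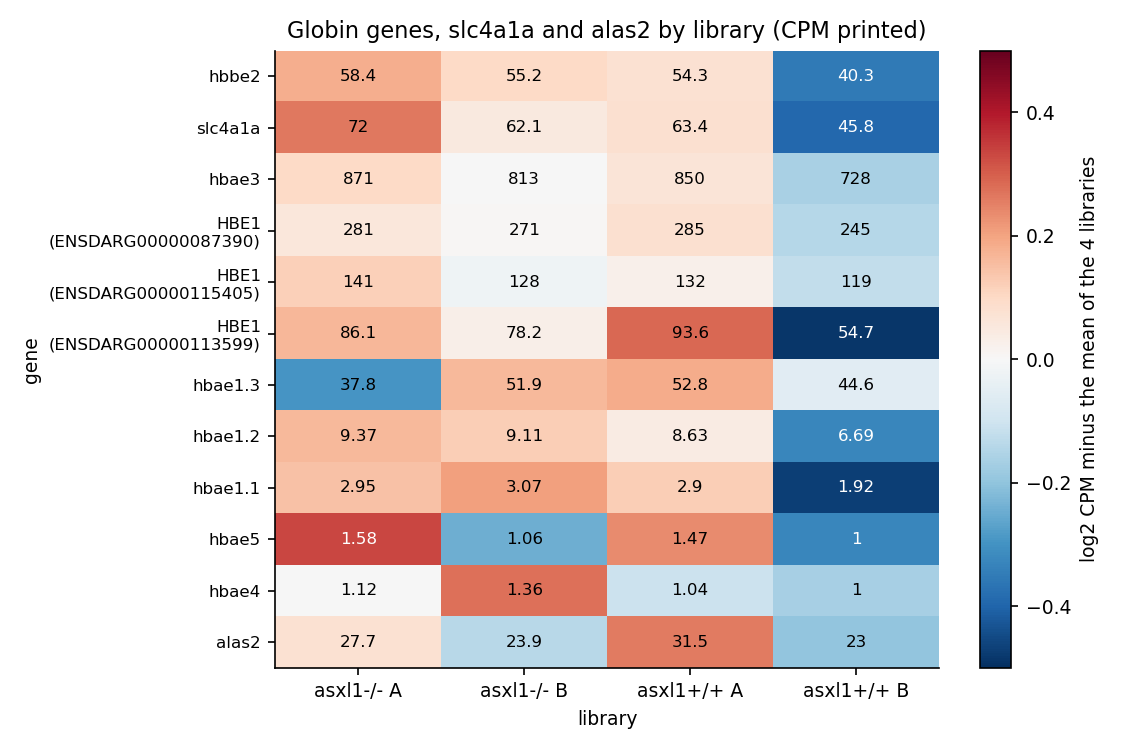
*hbbe2*, *slc4a1a*, the 9 other globins tested and *alas2* in each library, with *asxl1*-/- on the left. Numbers are CPM and colors are log2 CPM minus the mean of the gene over the 4 libraries, and *asxl1*+/+ replicate B is below the mean in every gene shown.

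*hbbe2* and *slc4a1a* were also set against the summed level of the other globins. *hbbe2* was 4.07% and 4.07% of the summed CPM of the other 15 globins in *asxl1*-/- replicates A and B, against 3.799% and 3.35% in *asxl1*+/+ replicates A and B. *slc4a1a* was at 5.02% and 4.58% of that sum in *asxl1*-/-, against 4.44% and 3.81% in *asxl1*+/+. These shares do not overlap between the genotypes, although *slc4a1a* overlapped in CPM. They carry the same genotype contrast that chose both genes. How often other genes separate on this scale was not computed, so the separation is a description only.

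*alas2* encodes the first enzyme of haem synthesis in red cells, and in zebrafish its loss causes a hypochromic anemia. It had 27.7 and 23.9 CPM in *asxl1*-/- replicates A and B, against 31.5 and 23.0 CPM in *asxl1*+/+ replicates A and B, a log2 fold change of -0.08 ± 0.15 (SE). Like *hbbe2* and *slc4a1a* it was lowest in *asxl1*+/+ replicate B, but it was highest in *asxl1*+/+ replicate A. The CPM ratio of *slc4a1a* to *alas2* was 2.59 and 2.60 in *asxl1*-/- replicates A and B, against 2.01 and 1.99 in *asxl1*+/+ replicates A and B. That of *hbbe2* to *alas2* was 2.10 and 2.31 in *asxl1*-/-, against 1.72 and 1.75 in *asxl1*+/+. Both *asxl1*+/+ libraries thus agreed closely once scaled to *alas2*, a comparison chosen after the values were seen and given with no test.

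The other enzymes of haem synthesis were mixed. Of the 10 genes of the list, 4 had a positive and 6 a negative log2 fold change, with a median of -0.05, and 0 passed the FDR threshold. *FECH*, the enzyme that inserts iron into the ring, had 4.02 and 7.20 CPM in *asxl1*-/- replicates A and B, against 4.33 and 7.92 CPM in *asxl1*+/+ replicates A and B. It was higher in both B libraries, the opposite of *alas2*. *uros*, an enzyme earlier in the pathway, had 7.99 and 8.31 CPM in *asxl1*-/-, against 9.15 and 8.999 CPM in *asxl1*+/+, and *UROD*, the step after it, had 11.2 and 12.2 CPM in *asxl1*-/-, against 10.5 and 10.2 CPM in *asxl1*+/+.

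The iron list held the largest fold changes of the 6 lists, those of *fthl28* and *fthl31*. Of its 7 genes, 3 had a positive and 4 a negative log2 fold change, with a median of -0.01, and 0 passed the FDR threshold. *fthl28* and *fthl31* encode ferritin heavy chain-like proteins, a family that stores iron. *fthl28* had 13.8 and 17.8 CPM in *asxl1*-/- replicates A and B, against 20.7 and 31.8 CPM in *asxl1*+/+ replicates A and B, a log2 fold change of -0.74 ± 0.19 (SE) with an FDR of 0.778 in edgeR's quasi-likelihood test. *fthl31* had 21.0 and 28.2 CPM in *asxl1*-/-, against 30.9 and 39.0 CPM in *asxl1*+/+, a log2 fold change of -0.51 ± 0.15 (SE). In both genes replicate B was the higher library within each genotype, the reverse of *hbbe2* and *slc4a1a*. *tfr1a*, the transferrin receptor that red cell precursors use to take up iron, had 43.9 and 45.8 CPM in *asxl1*-/-, against 37.5 and 38.8 CPM in *asxl1*+/+. All 3 are on the study's list, which was chosen on these libraries. The size of their fold changes is in part fixed by that choice. The other iron genes, *tfr1b*, *SLC25A37*, *slc11a2* and *STEAP3*, had log2 fold changes of -0.01, 0.12, 0.04 and -0.06. Ferritins are also made in other cells.

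Of the 13 other membrane and skeleton genes tested, 6 had a positive and 7 a negative log2 fold change, with a median of -0.01, and 0 passed the threshold. *slc4a1a* was the sixth of this list by CPM per kb, below *RHAG* at 51.8 and *SPTB* at 22.7 and above *GYPC* at 7.85 CPM per kb. The highest of the list, *TMOD4* at 155 CPM per kb, is also used by muscle. *RHAG*, a channel of the red cell Rh complex, had 188 and 179 CPM in *asxl1*-/- replicates A and B, against 196 and 204 CPM in *asxl1*+/+ replicates A and B. *SPTB*, the beta spectrin of the membrane skeleton, had 182 and 175 CPM in *asxl1*-/-, against 174 and 162 CPM in *asxl1*+/+. These membrane genes thus lay on opposite sides of 0, at -0.12 ± 0.06 and 0.09 ± 0.07 (SE) on the log2 scale, and neither shared the gap of *slc4a1a* between the *asxl1*+/+ libraries.

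A second gene that the name table calls SLC4A1 (ENSDARG00000024560) lies on chromosome 12. It had 7.74 and 6.95 CPM in *asxl1*-/- replicates A and B, against 7.67 and 5.96 CPM in *asxl1*+/+ replicates A and B, with a log2 fold change of 0.11 ± 0.17 (SE). Its mean of 2.32 CPM per kb was below the 17.1 CPM per kb of *slc4a1a*, and its libraries fell in a like order, with *asxl1*+/+ replicate B lowest.

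Among the red cell enzymes, 6 of 11 genes had a positive and 5 a negative log2 fold change, with a median of 0.09, and 0 passed the FDR threshold. *cahz*, a carbonic anhydrase of zebrafish blood that makes the bicarbonate exchanged by band 3, had 37.5 and 33.1 CPM in *asxl1*-/- replicates A and B, against 35.3 and 28.3 CPM in *asxl1*+/+ replicates A and B. It followed the order of libraries seen for *slc4a1a*, with a log2 fold change of 0.15 ± 0.12 (SE). *ca2*, another carbonic anhydrase, had 96.7 and 103 CPM in *asxl1*-/-, against 85.1 and 88.2 CPM in *asxl1*+/+, and *nt5c3a*, a nucleotidase that clears pyrimidine nucleotides from maturing red cells in humans, had 87.2 and 92.4 CPM in *asxl1*-/-, against 72.2 and 80.3 CPM in *asxl1*+/+. Both are on the study's list, both have an FDR of 0.9999 in edgeR's quasi-likelihood test, and both were slightly higher in replicate B of each genotype.

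Of the 17 regulators, 9 had a mean under 5 CPM and 6 a mean of 10 CPM or more. *gata1a*, the transcription factor that directs red cell development, had 2.24 and 2.47 CPM in *asxl1*-/- replicates A and B, against 3.12 and 2.00 CPM in *asxl1*+/+ replicates A and B. *klf1*, a factor that binds globin promoters in mammals, had 3.31 and 3.02 CPM in *asxl1*-/-, against 3.21 and 2.42 CPM in *asxl1*+/+. Both were lowest in *asxl1*+/+ replicate B, and neither genotype was separate from the other. By genotype, 7 regulators had a positive and 10 a negative log2 fold change, with a median of -0.05, and 0 passed the threshold. *asxl1*+/+ replicate A was above replicate B in 15 of 17, beside 49.8% of all genes. *asxl1*-/- replicate A was above replicate B in 14 of 17, beside 10172 of the 19970 genes tested. Gaps of like size in both genotypes were seen in *mych*, a Myc family factor that is not particular to red cells, with 57.3 and 30.7 CPM in *asxl1*-/-, against 59.1 and 32.3 CPM in *asxl1*+/+.

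The genes around *hbbe2* were also examined, since its cluster is separate from the chromosome 3 globins. Within 100 kb, 8 annotated genes lie on either side, among them the globins *hbae4*, *hbbe3* and *hbae5*, and 7 of them passed the filter. None of the 7 had an FDR below 0.05 in edgeR's quasi-likelihood test, or an unadjusted p below 0.05, and the exact test and DESeq2 called 0 as well. Over all genes the shares of the quasi-likelihood test were 0.0601% and 3.08%, so a count of 0 among 7 genes does not set the neighbours apart. Per kb of exon *hbbe2* was the highest of these globins, at a mean of 88.2 CPM per kb beside 1.49 for *hbae4*, 1.01 for *hbae5* and 0.710 for *hbbe3*. *hbae4* had 22 and 27 counts in *asxl1*-/- replicates A and B, against 24 and 26 counts in *asxl1*+/+ replicates A and B, and *hbbe3* had 6 and 5 counts in *asxl1*-/-, against 10 and 13 counts in *asxl1*+/+.

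*hbae5*, an alpha-type globin on the opposite strand, spans *hbbe2*. The annotation gives 103 bases to exons of both genes, at chr12:20349961-20350063, all within the third exon of *hbbe2* and 17.5% of its exonic length. Counting ignored strand and left out pairs that fell on 2 genes, so pairs over these bases could be lost from both genes in all libraries. How many were lost was not tested. Antisense reads over the remaining exons would be counted as *hbbe2*. *hbae5* had 31 and 21 counts in *asxl1*-/- replicates A and B, against 34 and 26 counts in *asxl1*+/+ replicates A and B. These counts are far below those of *hbbe2*.

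**Figure D5:**
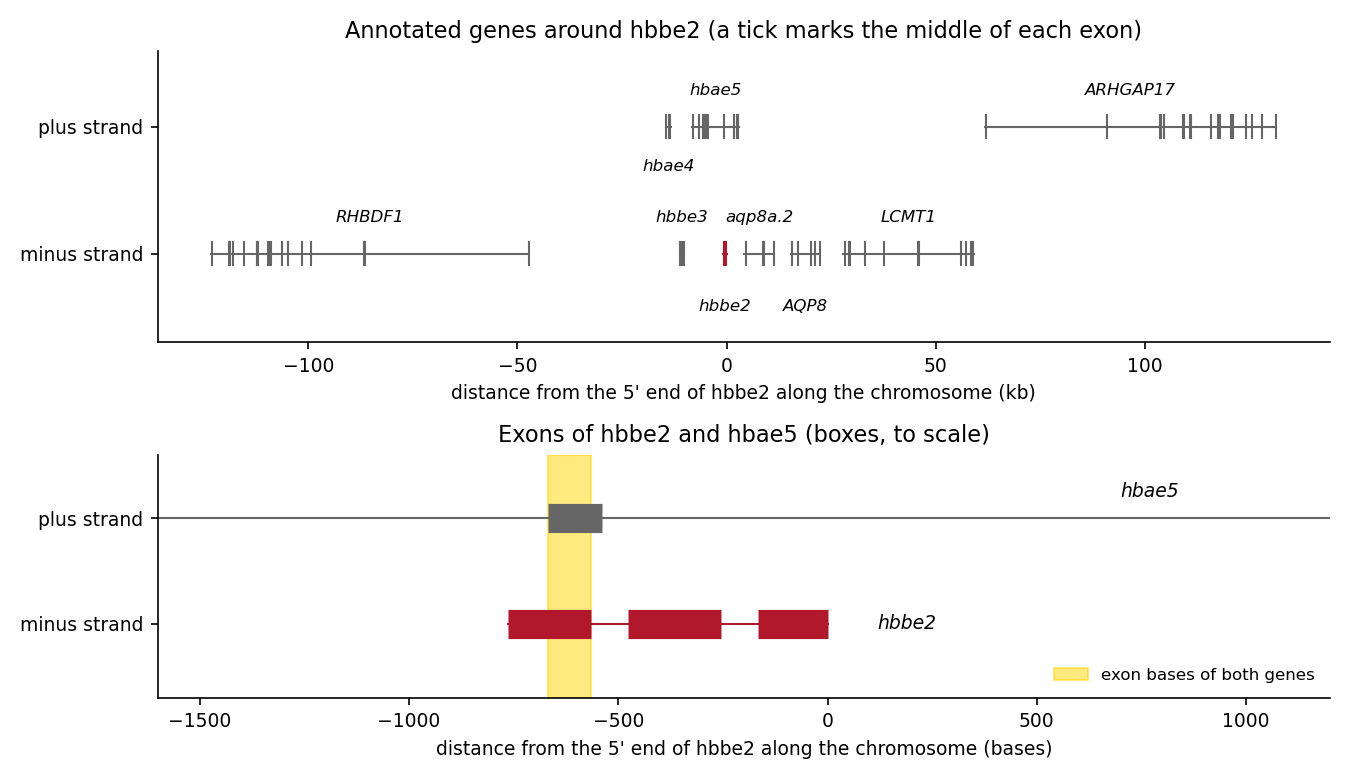
Annotated genes around *hbbe2* by strand with a tick at the middle of each exon (top), and the exons of *hbbe2* and *hbae5* near it as boxes to scale (bottom), as the distance along the chromosome from the 5′ end of *hbbe2*. The yellow band marks the 103 exon bases that both genes hold, inside the third exon of *hbbe2*.

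The non-globin neighbours of *hbbe2* lay on both sides of 0. *AQP8*, a water channel gene 15.5 kb away, had the highest mean level of these per kb of exon, 28.0 CPM per kb, with 30.2 and 27.7 CPM in *asxl1*-/- replicates A and B, against 31.0 and 26.2 CPM in *asxl1*+/+ replicates A and B. Its log2 fold change was 0.02 ± 0.11 (SE). Those of *RHBDF1* (ENSDARG00000017367, 0.17 ± 0.16), *LCMT1* (0.05 ± 0.14), *ARHGAP17* (-0.09 ± 0.14) and *aqp8a.2* (-0.36 ± 0.51) were each within about their SE of 0. Beside *slc4a1a*, *selenow2b* had 41.4 and 46.8 CPM in *asxl1*-/-, against 47.8 and 50.4 CPM in *asxl1*+/+, and *si:dkey-15k2.5* had between 5 and 12 counts in each library. No exon of another gene shares bases with an exon of *slc4a1a*.

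Markers of other cells in the tails are given beside these values. The neutrophil, skin, pancreas and muscle markers are all on the study's list of genes that differed in these libraries, so their directions are no independent evidence. The 5 neutrophil markers summed to 65.0 to 74.7 CPM in *asxl1*-/- and 86.1 to 102 CPM in *asxl1*+/+, with 5 of 5 lower in *asxl1*-/- and 0 past the FDR threshold. The 3 skin keratins summed to 6121 to 6626 CPM in *asxl1*-/- and 7811 to 8280 CPM in *asxl1*+/+, with 3 of 3 lower. The 6 genes of pancreatic digestive enzymes summed to 3.78 to 3.92 CPM in *asxl1*-/- and 9.15 to 21.7 CPM in *asxl1*+/+, the highest value being *asxl1*+/+ replicate B, and *ctrb1* was at 0 counts in both *asxl1*-/- libraries. The 8 muscle genes, dominated by *actc1b*, summed to 66155 to 66588 CPM in *asxl1*-/- and 69417 to 69887 CPM in *asxl1*+/+, although 6 of the 8 had a positive log2 fold change, with a median of 0.15. The part of these cell types in the values of *hbbe2* and *slc4a1a* was not tested.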

How the data were processed

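Tails were pooled at 3 dpf and sequenced as read pairs in 4 libraries, 2 per genotype. The authors' text describes poly-A selected RNA, while the labels name total RNA. The authors mapped the reads to GRCz11 with STAR and used featureCounts 1.6.4 to assign pairs to exons of genes in Ensembl release 96, ignoring strand, multi-mapping pairs and pairs on several genes. The deposited values are raw counts for 32520 genes, which the authors did not normalize, and every count column was used.

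These counts were fitted with edgeR 4.0.16 under R 4.3.3. filterByExpr by genotype kept 19970 genes, libraries were scaled by TMM, and genotype was tested with the quasi-likelihood test, with Benjamini-Hochberg adjusted p-values and an FDR threshold of 0.05. The SE of a log2 fold change was obtained from its size and the root of F. Log2 CPM used a prior count of 2. Alternatives were library size without TMM, upper-quartile factors, no filter beyond 1 count, at least 10 counts in every library, edgeR's exact test (the test the authors name), DESeq2 1.42.0 without independent filtering, the replicate letter as a block, an FDR of 0.01, windows of 50 and 200 kb, and each library left out. The scripts were tested on simulated counts.

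*hbbe2* and *slc4a1a* took their names from the study's gene list. The other identifiers took theirs from a table of gene IDs and symbols, which named 29207 of the 32520. Genes named in the text were the members of the erythroid and marker lists, the genes within 100 kb of *hbbe2* and beside *slc4a1a*, and the 5 named genes most like each of the pair. The 6 other HBE1 rows were counted with the globins, a rule added after the table was seen. The genes and lists were chosen with earlier results of these data known. Intervals of count ratios are exact binomial intervals at 95%.

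No label says that replicates A and B were separate clutches, so p-values measure the spread between these libraries only. With 2 libraries against 2, the smallest two-sided p of an exact permutation test on 1 gene is 0.333. Libraries of a genotype differed beyond counting noise, with a chi-square per degree of freedom of 4.82 in *asxl1*-/- and 6.49 in *asxl1*+/+, so none was the same library sequenced again. This does not tell whether libraries of a genotype came from the same pool. Tables were made with pandas 2.3.3 and SciPy 1.17.1, and plots with matplotlib 3.10.9, in Python 3.11.15.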

Additional observations from a re-analysis of the deposited data

How the results depend on the processing

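The log2 fold changes of *hbbe2* and *slc4a1a* stayed positive in all 11 alternative fits. These fits reuse the libraries whose genotype difference chose both genes, so the shared sign is no independent evidence. Leaving out 1 library moved *hbbe2* between 0.066 (without *asxl1*+/+ replicate B) and 0.493 (without *asxl1*+/+ replicate A), and *slc4a1a* between 0.081 and 0.548. The count of genes called, 12, was 19 with no filter beyond 1 count, 27 with DESeq2, 53 with the exact test, 2 at an FDR of 0.01, and between 9 and 80 when 1 library was left out. Among the other erythroid genes, the count called stayed at 0 in the alternatives on all 4 libraries, apart from the replicate block. Block aside, the share over all genes in these fits was at most 0.265%. When 1 library was left out, the lone library of a genotype is assumed to vary like the pair of the other. For those fits only log2 fold changes are read among these genes. That of *mych* was -0.57 without *asxl1*-/- replicate A. Those of *fthl28* and *fthl31* were -0.93 and -0.74 without *asxl1*-/- replicate B. The count of *hbbe2* neighbours called stayed at 0 in every alternative, windows of 50 and 200 kb included. The difference of the *hbbe2* to *slc4a1a* ratio, *asxl1*-/- minus *asxl1*+/+, was -0.02 in CPM and -0.11 per kb of exon, which is the same ratio rescaled by length, and between -0.06 and 0.02 when 1 library was left out.

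With the replicate letter as a block (replicate block), 301 of 19970 genes tested were called, a share of 1.51%. The study's list holds 294 genes, while edgeR's exact test on genotype, which the authors name, called 53 here. The cause of that difference was not tested. With the block, 5 of the 67 other erythroid genes were called (*ca2*, *nt5c3a* and *tfr1a* higher, *fthl28* and *fthl31* lower). All 5 are on the study's list, chosen on these libraries, and 0 erythroid genes outside that list were called. At an unadjusted p below 0.05 in the fit with the block, 11 of the 67 genes were higher and 4 lower. Over all genes that count was 1797 of 19970, in either direction. Genes outside the list were among those 11 and 4, such as *hbae3* and ENSDARG00000113599 (higher) and *RHAG* and *BPGM* (lower). The fit with the block has 1 residual degree of freedom. The log2 fold changes were 0.28 for *hbbe2* and 0.31 for *slc4a1a*. Deviations from the genotype mean correlated across genes between libraries that share a letter (Pearson r = 0.27, genes not being independent replicates). The labels do not say what a letter shares, so the main fit left this pairing out. That fit therefore counts any difference between letters as spread within a genotype. Counts were also closer between the genotypes of 1 letter, with a chi-square per degree of freedom of 3.04 for A and 3.20 for B, than within *asxl1*-/- (4.82) or *asxl1*+/+ (6.49), and the common biological coefficient of variation was 3.49% with the block and 8.81% without it. Within each letter *hbbe2* and *slc4a1a* were both higher in *asxl1*-/-, but this is the contrast that chose both genes and is no independent evidence.

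The main limit is the number of libraries. The size of the genotype difference of *hbbe2* and *slc4a1a* depends on *asxl1*+/+ replicate B, and genes such as *hbae4* and *hbae5* also have few counts.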

Other observations

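Macrophage, thrombocyte, vessel and proliferation genes were also measured. The 13 macrophage genes (*csf1ra*, *marco* and the rows named MPEG1 and MFAP4) summed to 67.6 and 64.2 CPM in *asxl1*-/- replicates A and B, against 61.0 and 64.3 CPM in *asxl1*+/+ replicates A and B, and 0 of the 7 tested had an FDR below 0.05 in edgeR's quasi-likelihood test or an unadjusted p below 0.05. The thrombocyte gene *itga2b* had 1.02 and 1.11 CPM in *asxl1*-/-, against 1.65 and 1.27 CPM in *asxl1*+/+, and *mpl*, the thrombopoietin receptor, had 1.12 and 1.36 CPM in *asxl1*-/-, against 1.17 and 1.19 CPM in *asxl1*+/+. Of the 5 thrombocyte rows, 1 had a positive and 4 a negative log2 fold change, with a median of -0.04, and 0 passed the threshold. The endothelial genes *kdrl*, *cdh5* and *FLI1* had log2 fold changes between -0.01 and 0.07, none past the threshold. *lyve1a*, a marker of lymphatic and venous endothelium on the study's list, had 6.11 and 6.55 CPM in *asxl1*-/-, against 4.33 and 4.15 CPM in *asxl1*+/+. The proliferation genes *PCNA*, *mki67* and *TOP2A* summed to 236 and 231 CPM in *asxl1*-/-, against 224 and 223 CPM in *asxl1*+/+, and 0 of 3 passed the threshold.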
